A study of Mus musculus with 9 samples.

Results

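The adult hemoglobin genes Hba-a1, Hba-a2, Hbb-bs and Hbb-bt, together with Alas2, were examined as a measure of the blood left in dissected mouse substantia nigra. The 5 genes were chosen by name, with earlier results of these data known, and all 5 were found among the 55450 annotated genes of the count files. The series holds 9 bulk RNA-seq libraries of nigral tissue taken 5 weeks after lentiviral transduction, 3 in each of 3 groups. All mice carried a Cre driver, received a bilateral nigral injection of a Cre-inducible (FLEX) lentivirus whose cassette is read from the Ef1a promoter, and were perfused with saline before dissection. The CTR group consisted of CX3CR1-CreERT2 mice (Cx3cr1tm2.1(Cre/ERT2)Litt/WganJ), in which tamoxifen releases Cre in microglia and other Cx3cr1-positive myeloid cells, injected with the GFP vector, which in the study's text carries a destabilized form of GFP. The CX3 group consisted of mice of the same line injected with the Synuclein-expressing vector. The DAT group consisted of DAT-Cre mice (Slc6a3tm1(Cre)Xz/J), in which Cre is made in dopaminergic neurons, injected with the Synuclein-expressing vector. The study's methods give tamoxifen on 4 consecutive days after surgery for the CX3CR1-CreERT2 mice and none for the DAT-Cre mice. They describe the mice as males purchased at 9 weeks of age, whereas its results place the injection at 8 weeks. No GFP-injected DAT-Cre library was among the samples, so the DAT and CTR groups differed in Cre line, tamoxifen and vector at once, and these cannot be told apart. The number of animals behind each library is not given in the labels, so p-values measure the spread between libraries, which may be partly technical.

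Hemoglobin is the oxygen carrier of the red blood cell, built from alpha and beta chains that each hold a heme group. Mature mouse red cells have no nucleus, but young circulating cells (reticulocytes) still hold globin mRNA, which makes globin transcripts a familiar trace of blood in a tissue extract. Alas2 is the erythroid form of the first enzyme of heme synthesis, whereas its relative Alas1 serves that step in other cells. Low levels of alpha- and beta-globin RNA are also known from some brain cells, including dopaminergic neurons of the nigra. In bulk tissue, fewer cells of a type and less RNA per cell cannot be told apart.

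The alpha-globin genes lie on chromosome 11 of the GRCm38 build, Hba-a1 at 32283511 to 32284465 and Hba-a2 at 32296489 to 32297298, both on the plus strand. The beta-globin genes lie on the minus strand of chromosome 7, Hbb-bs at 103826534 to 103828096 and Hbb-bt at 103812524 to 103813996. Alas2 lies on the plus strand of chromosome X at 150547375 to 150570638. The 250 bases before the RefSeq start of transcription are given because the 4 globin genes moved together across the libraries. Capitals mark 4 short motifs, searched on both strands of the GRCm38.p6 windows. GATAA holds the core read by GATA factors. CACCC is read by Klf1 and its relatives. CCAAT is the binding word of the NF-Y factor, and TATAA that of the general transcription machinery.
Hba-a2, chr11:32296242-32296491, plus strand: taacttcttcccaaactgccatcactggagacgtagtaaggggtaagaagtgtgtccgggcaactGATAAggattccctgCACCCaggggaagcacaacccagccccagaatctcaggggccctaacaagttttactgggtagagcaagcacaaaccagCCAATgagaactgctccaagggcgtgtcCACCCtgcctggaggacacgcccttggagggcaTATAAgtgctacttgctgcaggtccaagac
Hbb-bs, chr7:103827929-103828178, minus strand: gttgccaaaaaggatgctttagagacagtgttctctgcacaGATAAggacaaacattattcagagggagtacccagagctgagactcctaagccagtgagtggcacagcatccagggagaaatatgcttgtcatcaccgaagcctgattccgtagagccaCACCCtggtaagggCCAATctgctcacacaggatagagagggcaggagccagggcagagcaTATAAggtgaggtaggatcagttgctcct
Hbb-bt, chr7:103813924-103814173, minus strand: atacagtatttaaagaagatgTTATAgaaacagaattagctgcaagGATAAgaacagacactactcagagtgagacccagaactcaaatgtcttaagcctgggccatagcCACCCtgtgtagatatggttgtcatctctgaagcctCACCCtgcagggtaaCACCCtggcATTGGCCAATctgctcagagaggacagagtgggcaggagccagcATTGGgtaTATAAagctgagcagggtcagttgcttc
Alas2, chrX:150547167-150547416, plus strand: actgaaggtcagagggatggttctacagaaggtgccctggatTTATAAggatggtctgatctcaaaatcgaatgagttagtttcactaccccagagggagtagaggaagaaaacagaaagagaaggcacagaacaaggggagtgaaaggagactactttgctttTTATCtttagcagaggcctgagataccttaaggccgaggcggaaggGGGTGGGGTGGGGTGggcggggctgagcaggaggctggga
The Hba-a1 window is not printed because it is a copy of that of Hba-a2: the full RefSeq windows of 300 bases share an unbroken identical run of 297. The longest run shared by Hbb-bs and Hbb-bt was 14 bases. CCAAT was present in the windows of 4 genes, with Alas2 as the exception, and the other motifs in those of all 5. These short words are common, since among 27025 mouse promoters of the same length GATAA was found in 23.0%, CACCC in 51.3%, CCAAT in 34.5% and TATAA in 23.5%. In the globin windows TATAA lay 23 to 30 bases before the start on the gene's own strand, and Hbb-bt held another copy on the other strand, farther from the start. In Alas2 it lay more than 200 bases before it, where the words on the 2 strands overlap,, and the CACCC letters stood 3 times in tandem on the other strand. A match is a description of the letters and not evidence of a bound factor. The GENCODE models of all 5 genes begin upstream of the RefSeq start, inside the windows.

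Near-identity also limits how far the counts separate the copies. Of the distinct 76-base stretches of the Hba-a1 transcripts, the length of the reads, 32.2% occur in no other gene, and for Hba-a2 the share was 15.6%, the shared remainder lying in the other copy. The corresponding shares were 48.6% for Hbb-bs, 43.5% for Hbb-bt and 90.1% for Alas2. No embryonic globin gene held such a stretch of the 4 adult genes. Reads that align to several places are assigned to no gene in these files, so the globin counts are minima and the split within each pair is uncertain. Part of the Alas2 exons (15.5% of their bases) overlaps genes on the opposite strand, Apex2 and Mir3620. In unstranded STAR gene counts a read over such a stretch is ambiguous and is assigned to no gene.

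Library totals ranged from 21592817 to 39475428 gene counts, at which 3 counts corresponded to 0.0779 to 0.151 CPM (counts per 1000000 counts of the library, after TMM scaling). Between libraries of a group, the mean squared difference of a gene was 1.51 to 1.94 times that of counting error alone in CTR, 2.88 to 8.01 times in CX3 and 2.47 times between DAT A and DAT C. It was 20.5 and 15.0 times for DAT B against DAT A and DAT C, so that DAT B stood apart. The dopaminergic identity of the tissue was present in all groups, with Th at 81.6 ± 2.16 CPM in CTR, 101 ± 2.50 in CX3 and 68.4 ± 0.501 in DAT (SD, n = 3 each). Of the Cre loci, Slc6a3 was lowest in the DAT group (91.1 ± 2.52 CPM against 130 ± 2.58 in CTR), and Cx3cr1 was lower in CX3 than in CTR by a log2 fold change of -1.20 (edgeR adjusted p = 2.84e-10).

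All 5 genes were lower in CX3 than in CTR, and the globins were affected more than Alas2. Together, the 4 globin genes reached 252 ± 12.4 CPM in CTR, 99.6 ± 7.77 in CX3 and 210 ± 43.3 in DAT (mean ± SD, n = 3), so that CX3 tissue held 39.6% and DAT tissue 83.5% of the CTR level. The sums were 261, 257 and 238 CPM in CTR libraries A, B and C, 105, 103 and 90.7 in CX3, and 181, 260 and 190 in DAT. The CX3 libraries lay below every other library, whereas DAT B reached the CTR range and DAT A and C did not.

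**Figure D1:**
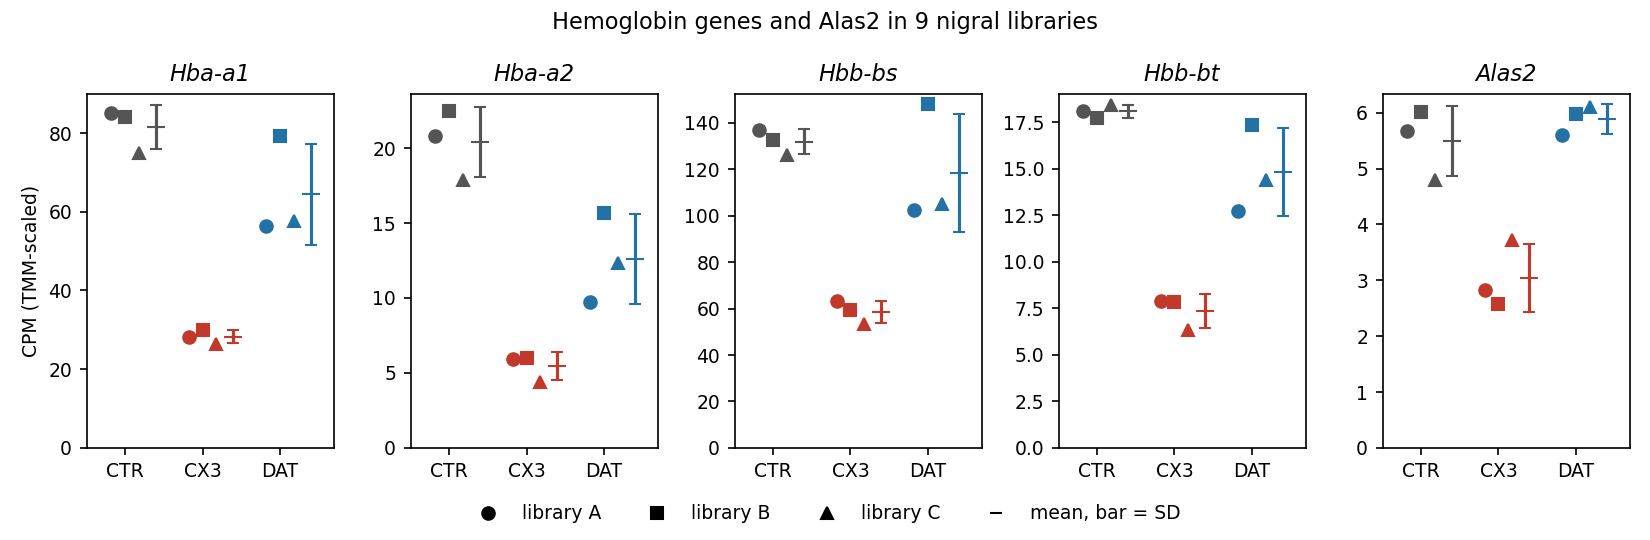
CPM of each gene in the 9 libraries (y axis, from 0) by group (x axis), with circles, squares and triangles for libraries A, B and C and a dash with bars for the mean and SD of 3 libraries. For each of the 5 genes the CX3 points lie below all CTR and DAT points, and DAT B is the highest DAT library for all 4 globins.

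Among the alpha chains, Hba-a1 stood at 85.1, 84.2 and 75.0 CPM in the CTR libraries, 28.2, 29.9 and 26.5 in CX3, and 56.4, 79.1 and 57.6 in DAT. The CX3 libraries were well apart from both other groups, and DAT B overlapped CTR. Hba-a1 was 2.89-fold lower in CX3 than in CTR (log2 fold change -1.53 ± 0.11, SE; edgeR quasi-likelihood test, Benjamini-Hochberg adjusted p = 1.25e-07). Hba-a2, the near copy, was counted at 20.8, 22.5 and 17.9 CPM in CTR, 5.95, 6.01 and 4.37 in CX3, and 9.71, 15.7 and 12.3 in DAT. None of its 3 groups overlapped another, with CTR highest and CX3 lowest. It showed the largest change of the 5 genes, 3.76-fold lower in CX3 than in CTR (log2 fold change -1.91 ± 0.15, edgeR adjusted p = 6.18e-07).

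Among the beta chains, Hbb-bs, the adult gene with the higher counts, was at 137, 132 and 126 CPM in CTR, 63.1, 59.2 and 53.5 in CX3, and 102, 148 and 105 in DAT. DAT libraries lay on both sides of the CTR range, and CX3 libraries below both groups. Hbb-bs was 2.25-fold lower in CX3 than in CTR (log2 fold change -1.17 ± 0.11, edgeR adjusted p = 2.98e-06). Hbb-bt, the adult gene with the lower counts, was at 18.1, 17.7 and 18.4 CPM in CTR, 7.89, 7.86 and 6.33 in CX3, and 12.7, 17.4 and 14.4 in DAT. The CTR libraries were nearly equal, and the DAT libraries fell between CTR and CX3. Hbb-bt was 2.46-fold lower in CX3 than in CTR (log2 fold change -1.30 ± 0.11, edgeR adjusted p = 6.93e-07).

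Alas2, the heme enzyme, was read at 5.68, 6.02 and 4.80 CPM in CTR, 2.83, 2.57 and 3.72 in CX3, and 5.59, 5.99 and 6.10 in DAT, from 89 to 219 counts per library. CX3 was again below the other groups, which overlapped each other. Alas2 was 1.81-fold lower in CX3 than in CTR (log2 fold change -0.85 ± 0.14, edgeR adjusted p = 3.73e-04). Per kilobase of exon the order in CTR was Hbb-bs (172 ± 6.95 CPM per kb), Hba-a1 (100 ± 6.85), Hba-a2 (30.6 ± 3.51), Hbb-bt (25.7 ± 0.491) and Alas2 (2.29 ± 0.261), where the neighbours Hba-a2 and Hbb-bt stood closest. In CX3 that pair stood in the other order, with Hbb-bt at 10.5 ± 1.27 and Hba-a2 at 8.16 ± 1.39 CPM per kb, whose spreads overlap.

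For CX3 against CTR the test called 5 of 5 genes lower at an adjusted p under 0.05, where 16.5% of the 20892 genes tested were called lower and 30.5% in either direction. The 2 groups did not overlap for any of the 5 genes, and 25.4% of all genes tested had CX3 wholly below CTR. The globins, but not Alas2, were also among the 2.26% of genes called and lower by more than 2-fold. The median log2 fold change of the 5 genes was -1.30, beside -0.00333 over all genes tested. These calls were kept with any single library left out. Requiring a change of more than 1.5-fold left 4 of the 5, and 529 of the 20892 genes tested.

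In DAT against CTR the genes differed less and less uniformly. Hba-a1 (log2 fold change -0.35 ± 0.10, adjusted p = 0.00955), Hba-a2 (-0.73 ± 0.15, adjusted p = 6.29e-04) and Hbb-bt (-0.31 ± 0.10, adjusted p = 0.0193) were lower in DAT by edgeR. That is 3 of 5, where 27.9% of genes tested were called lower and 59.9% in either direction. Hbb-bs (log2 fold change -0.16, 95% interval -0.39 to 0.08, adjusted p = 0.224) and Alas2 (0.09, interval -0.20 to 0.38, adjusted p = 0.586) did not pass. Only Hba-a2 and Hbb-bt had DAT wholly below CTR, as did 30.6% of all genes tested. Single libraries decided part of this. Without DAT B the difference of Hbb-bs was -0.35 (edgeR adjusted p = 2.90e-06) and 4 of 5 genes passed, beside 13389 of all 21699 tested in that fit. Without DAT A the edgeR adjusted p of Hbb-bt was 0.0940 and 2 of 5 passed, beside 11378 of 21343. With a required change of 1.5-fold none of the 5 was called by edgeR, beside 3773 of the 20892 genes tested. With no such requirement 3 were called by edgeR and 3 by DESeq2, each at an adjusted p under 0.05, beside 12520 and 11985 of all genes tested.

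In CX3 against DAT, both injected with the Synuclein-expressing vector but of different Cre lines, all 5 genes were lower in CX3. The log2 fold changes were -1.18 ± 0.11 for Hba-a1, -1.18 ± 0.17 for Hba-a2, -1.01 ± 0.11 for Hbb-bs, -0.99 ± 0.11 for Hbb-bt and -0.94 ± 0.14 for Alas2 (SE). Their edgeR adjusted p-values ran from 3.68e-07 to 5.20e-05. Here 31.3% of all genes tested were called lower in CX3 and 58.9% in either direction, and 32.2% had CX3 wholly below DAT, as all 5 genes did. The 3 comparisons share libraries, and their values are therefore not independent of one another.

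**Figure D2:**
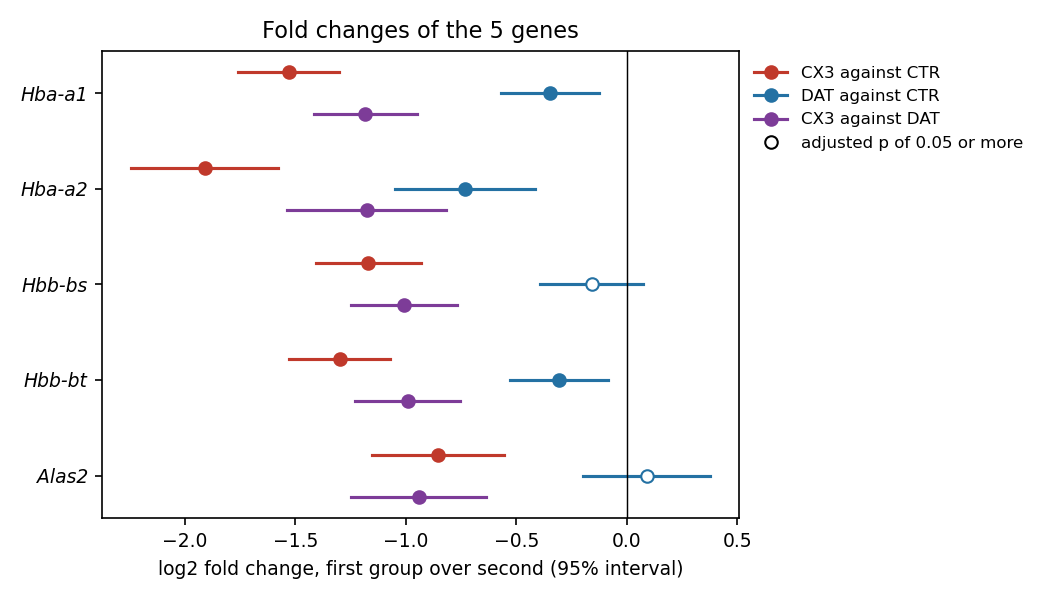
Log2 fold change of each gene (x axis, first group over second) with its 95% interval from the edgeR fit, in 3 comparisons, filled where the adjusted p was under 0.05. In CX3 against CTR the estimates run from -1.91 for Hba-a2 to -0.85 for Alas2, whereas in DAT against CTR the intervals of Hbb-bs and Alas2 include 0.

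The proportions between the chains also differed between the groups. The alpha to beta count ratio was 0.683, 0.710 and 0.642 in the CTR libraries, 0.481, 0.535 and 0.516 in CX3, and 0.575, 0.574 and 0.585 in DAT. The 3 groups did not overlap, with alpha chains making up the smallest part in CX3 and the largest in CTR. The 95% Wilson intervals, which cover counting error only, ran down to 0.612 in CTR and up to 0.573 in CX3, so that these did not touch, whereas the DAT intervals of 0.542 to 0.622 overlapped both. The ratios are given as a description and were not tested. The ratio of Hba-a1 to Hba-a2 was 4.01 ± 0.240 in CTR, 5.26 ± 0.702 in CX3 and 5.18 ± 0.581 in DAT (SD, n = 3), with CTR below both other groups. The ratio of Hbb-bs to Hbb-bt was 6.85 to 7.56 in CTR, 7.54 to 8.46 in CX3 and 7.31 to 8.52 in DAT, with overlapping groups. Alas2 gave 20.2 to 23.4 counts per 1000 globin counts in CTR, 24.97 to 41.0 in CX3 and 23.0 to 32.2 in DAT. Its highest value was in CX3 C, the library with the fewest globin counts for its depth. Since most of each transcript is shared within a pair, these ratios describe uniquely aligned reads and not molecules.

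**Figure D3:**
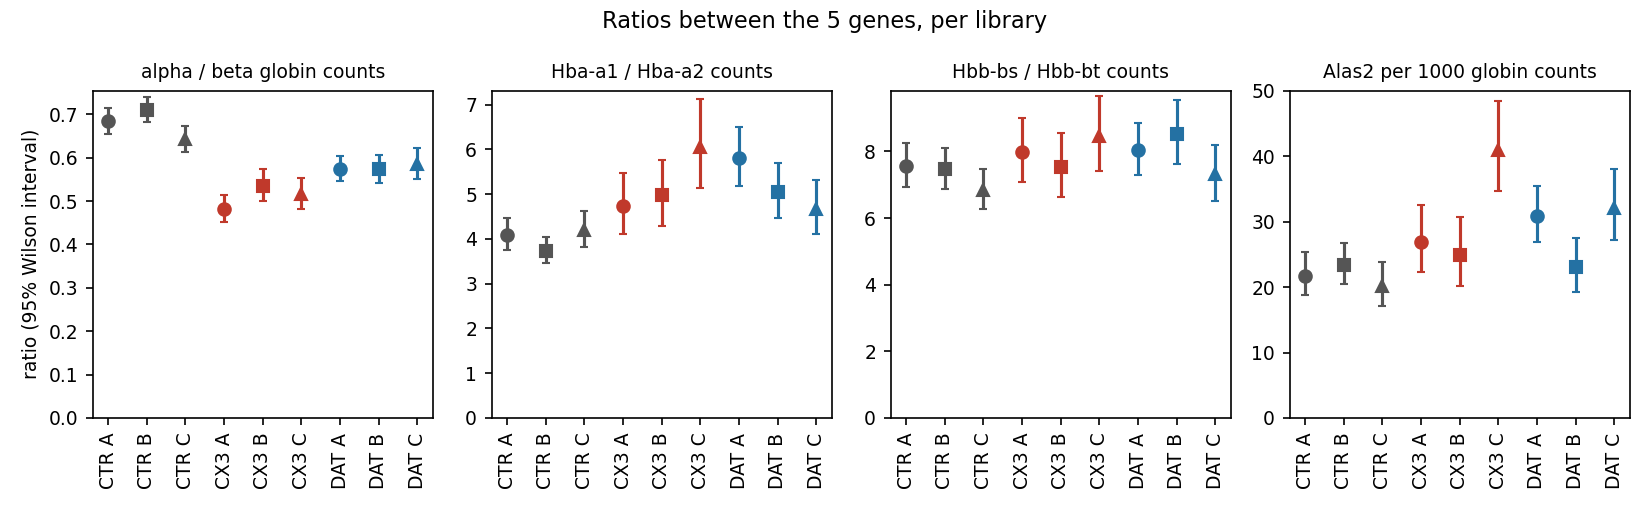
Count ratios between the 5 genes in each library (x axis, colours by group), each with its 95% Wilson interval for counting error. The alpha to beta ratio lies at 0.642 or more in CTR, 0.574 to 0.585 in DAT and 0.535 or less in CX3, whereas the Hbb-bs to Hbb-bt ratios overlap.

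The embryonic globins, made by primitive red cells of the early embryo and normally silent in adult blood, followed another pattern. Hbb-y, the embryonic epsilon-like beta chain gene, had 35, 177 and 155 counts in CTR A, B and C, 6, 4 and 5 in CX3, and 9, 574 and 591 in DAT. In CPM this was 1.15, 4.86 and 5.17 in CTR, 0.116 to 0.156 in CX3, and 0.247, 28.9 and 25.9 in DAT. DAT B and DAT C thus exceeded all other libraries, and DAT A resembled CX3. Hba-x, the embryonic zeta-like alpha chain gene, had 24, 43 and 40 counts in CTR, none in any CX3 library and 1, 142 and 151 in DAT, where a count of 0 allows up to 0.0866 CPM in the shallowest CX3 library. Hbb-bh1 had 29, 8 and 5 counts in CTR, none in CX3 and 0, 79 and 108 in DAT. The same libraries were therefore high for all 3 genes, although CTR A led CTR for Hbb-bh1 and trailed for the other two.

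Of all counts to the 4 adult and 3 embryonic globins, the embryonic genes took 13.3% in DAT B (95% Wilson interval 12.5 to 14.2) and 16.4% in DAT C (15.5 to 17.5). They took 1.10 to 2.73% in CTR and 0.112 to 0.151% in CX3 and DAT A. DAT B and DAT C, with 795 and 850 embryonic counts, had adult sums of 260 and 190 CPM, and DAT A, with 10 embryonic counts, had 181. The part of these transcripts in the adult globin counts was not tested. With DAT B and DAT C both left out, all 5 genes remained lower in CX3 than in CTR. Those libraries are not part of that comparison, and leaving them out changes only the filter, the scaling and the shared spread. The direction could therefore hardly change. The log2 fold changes of DAT A against CTR were then -0.51 for Hba-a1, -1.05 for Hba-a2, -0.34 for Hbb-bs, -0.48 for Hbb-bt and 0.04 for Alas2. With CTR B and CTR C left out as well, all 5 were again lower in CX3. DAT A against CTR A then gave -0.56, -1.06, -0.38, -0.47 and 0.01 in the same order. In these fits a lone library was assumed to vary like the others.

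**Figure D4:**
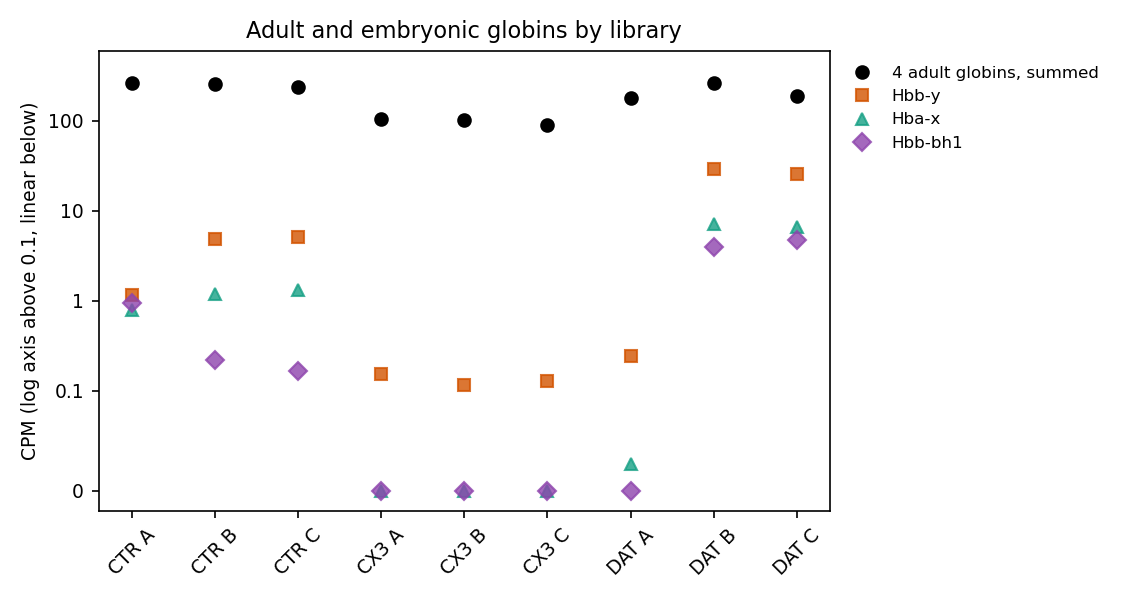
CPM of 3 embryonic globins and the sum of the 4 adult globins in each library, on an axis that is logarithmic above 0.1 CPM and linear below. Hbb-y reaches 28.9 and 25.9 CPM in DAT B and DAT C but 0.247 in DAT A, and Hba-x and Hbb-bh1 are at 0 in all CX3 libraries.

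Of the remaining globins, those of non-blood cells moved differently. Cygb (cytoglobin, made by fibroblast-like cells and some neurons) was at 62.1 ± 1.77 CPM in CTR, 64.6 ± 1.90 in CX3 and 118 ± 3.42 in DAT, and Ngb (neuroglobin, a neuronal heme protein) at 16.8 ± 0.458, 15.9 ± 1.44 and 31.4 ± 4.14 (SD, n = 3). Both rose in DAT against CTR, by log2 fold changes of 0.93 ± 0.05 (edgeR adjusted p = 7.39e-10) and 0.90 ± 0.09 (8.22e-07), and neither passed in CX3 against CTR (adjusted p = 0.386 and 0.561). Of the 10 other globins, 7 were tested, of which 1 rose and 2 fell in CX3 against CTR, 5 rose in DAT against CTR and 5 fell in CX3 against DAT. Without DAT B and DAT C, 3 rose and 3 fell in DAT against CTR and 2 fell in CX3 against DAT. Hbb-y, the third of the genes named for this list, differed in CX3 against DAT at an adjusted p of 5.20e-04. Hbb-bh0 had no count, and Hbb-bh2 had fewer than 3 in every library.

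The list of red cell and erythroid genes mixed scarce genes with ones that brain cells also express. Of its 21 genes 20 were identified and 11 had enough counts to be tested, of which 2 fell and 3 rose in CX3 against CTR, with a median log2 fold change of 0.15. Slc4a1, the band 3 anion exchanger of the red cell membrane, had 15 to 28 counts in the CTR libraries, 0 to 7 in CX3 and 14 to 26 in DAT. It fell in CX3 against CTR (log2 fold change -2.48 ± 0.63, edgeR adjusted p = 0.00844) and lay lower than in DAT (adjusted p = 8.33e-04). Slc4a1 and Tspo2, an erythroid relative of the translocator protein, were both chosen for mention after their values were seen, as the 2 genes of this list that fell. Among the 6 that did not pass in CX3 against CTR were Rhd (log2 fold change -0.03), Ermap (-0.28), Trim58 (0.52) and Epor (0.31). Their edgeR adjusted p-values ran from 0.164 for Epor to 0.953 for Rhd. Tspo2 had 42 counts over the 3 CTR libraries, 16 in CX3 and 7 in DAT, and fell in both CX3 and DAT against CTR (adjusted p = 0.0174 and 0.00274).

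The precursor genes were scarcer still. Over 3 libraries each, Gata1 (the erythroid transcription factor) had 18, 6 and 3 counts in CTR, CX3 and DAT. Klf1, another erythroid factor, had 24, 23 and 26, and Rhag no count in CX3 or DAT. These genes were too scarce to be tested. The list members with the smallest adjusted p were instead ones that brain cells also express: Ank1 (ankyrin) at 76.5, 85.6 and 204 CPM in CTR, CX3 and DAT, Sptb (beta spectrin) at 92.1, 89.7 and 226, and Tfrc (transferrin receptor) at 85.9, 135 and 101. Tfrc rose in CX3 against CTR (log2 fold change 0.66, edgeR adjusted p = 1.25e-07), and Ank1 and Sptb rose in DAT against CTR (1.42 and 1.29, adjusted p = 8.11e-10 and 1.27e-08). In DAT against CTR 5 of the 11 rose and 2 fell, and in CX3 against DAT 3 rose and 3 fell.

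Heme synthesis apart from Alas2 hardly moved in CX3. Of 8 enzymes, only Alas1 fell against CTR, from 42.7 ± 1.03 to 34.05 ± 2.20 CPM (log2 fold change -0.33 ± 0.06, edgeR adjusted p = 9.89e-04), and the median of the list was 0.02. In DAT 3 rose and 1 fell, among them Alas1 (0.36, adjusted p = 1.32e-04) and Cpox, a mitochondrial enzyme of the pathway (0.36, adjusted p = 1.40e-05). Relative to DAT, 4 of the 8 fell and 1 rose in CX3. Of the named genes Alad, a cytosolic enzyme of the pathway, had its smallest adjusted p of 6.79e-06 over the 3 comparisons.

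Among 9 genes of heme and hemoglobin clearance, Hmox1, the inducible heme oxygenase that opens the heme ring, was at 16.3 ± 0.249 CPM in CTR, 8.44 ± 0.656 in CX3 and 7.97 ± 0.595 in DAT. The CTR libraries lay above all others. It fell in CX3 (log2 fold change -0.95 ± 0.08, edgeR adjusted p = 5.28e-07) and in DAT (-1.04 ± 0.08, adjusted p = 6.75e-08) against CTR, and for CX3 against DAT the difference was 0.09 ± 0.08 (adjusted p = 0.366). The iron exporter Slc40a1 rose in CX3 (0.37, adjusted p = 0.00206), and Lrp1, a receptor that takes up heme bound to hemopexin among many ligands, rose in DAT (1.20, adjusted p = 3.21e-08). In all, 2 of the 9 rose and 1 fell in CX3 against CTR, 2 rose and 2 fell in DAT against CTR, and 2 rose and 2 fell in CX3 against DAT.

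Other blood cells could be read beside the globins. Of 11 neutrophil markers 6 were tested, of which 4 fell and 1 rose in CX3 against CTR, and 5 fell in DAT against CTR. S100a9, an abundant neutrophil calcium-binding protein, was at 1.37 ± 0.179 CPM in CTR, 0.454 ± 0.103 in CX3 and 0.407 ± 0.169 in DAT, and Ngp, a granule protein, at 0.564 ± 0.147, 0.0991 ± 0.0664 and 0.122 ± 0.0354. Both were lower in CX3 (edgeR adjusted p = 5.09e-04 and 9.91e-04) and in DAT (1.92e-04 and 0.00110) than in CTR. For CX3 against DAT their log2 differences were 0.10 ± 0.34 and -0.21 ± 0.66 (adjusted p = 0.817 and 0.810), and 2 of the 6 markers rose and none fell. The globins in turn separated CX3 from DAT. Csf3r, the receptor for granulocyte growth factor, which microglia also express, was at 29.7 ± 0.337, 25.4 ± 0.604 and 11.3 ± 2.33 CPM and made up most of the list's summed level. Of 10 platelet markers 6 were tested, of which 2 fell in CX3 against CTR and 4 did not pass. In DAT against CTR 1 rose, 1 fell and 4 did not pass. The summed level of the list was 9.52 to 10.1 CPM in CTR, 9.11 to 10.1 in CX3 and 8.78 to 10.1 in DAT. Ppbp, a platelet chemokine, fell from 1.10 ± 0.212 CPM in CTR to 0.578 ± 0.147 in CX3 and 0.559 ± 0.260 in DAT (edgeR adjusted p = 0.0319 and 0.0196). Gp5, a platelet glycoprotein, rose in DAT (adjusted p = 0.0408).

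Markers of tissue borders and vessels also differed between the groups. Choroid plexus markers, 6 of 6, rose in both CX3 and DAT against CTR. Ttr, the plexus carrier of thyroid hormone, was at 20.03 ± 0.720 CPM in CTR, 1457 ± 56.2 in CX3 and 853 ± 97.7 in DAT, and the summed level of the list was 33.6 to 36.5 CPM in CTR, 1471 to 1581 in CX3 and 867 to 1039 in DAT. Clic6 and Kl, the other genes named for the list, rose by log2 fold changes of 1.503 and 1.703 in CX3 and 2.06 and 2.36 in DAT against CTR (edgeR adjusted p at most 6.53e-09). In CX3 against DAT 4 of the 6 rose and 2 fell. Plexus genes thus rose where the globins fell, and the part of tissue composition in the globin differences was not tested.

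Endothelial markers rose for 6 and fell for 2 of 10 in CX3 against CTR, and rose for 7 and fell for 3 in DAT, with summed levels of 336 to 339 CPM in CTR, 417 to 421 in CX3 and 477 to 508 in DAT. Cldn5, a tight junction protein of brain vessels, rose 2.30-fold in CX3 (edgeR adjusted p = 5.91e-08), whereas Vwf, the clotting protein of larger vessels, fell (log2 fold change -0.28, adjusted p = 0.0113) and rose in DAT (1.82, adjusted p = 8.27e-11). Ly6c1, a capillary surface protein, fell in both (-0.20 and -1.08, adjusted p = 0.0138 and 2.06e-09). The summed endothelial level was higher in CX3 than in CTR, whereas the globins were lower. The markers did not move together, and the part of vessel content in the globin differences was not tested. In CX3 against DAT 3 endothelial markers rose and 5 fell.

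Of 8 mural cell markers 7 were tested, with 3 up and 2 down in CX3 against CTR, 5 up and 1 down in DAT, and 1 up and 6 down in CX3 against DAT. The pericyte genes Rgs5 and Vtn went in opposite directions in CX3 (log2 fold changes 0.43 and -1.04, edgeR adjusted p = 7.40e-06 and 1.62e-09), and Pdgfrb, a pericyte receptor, rose by 0.30 (adjusted p = 0.00564). Of 6 meningeal fibroblast markers 3 fell in CX3 and 4 rose in DAT against CTR, and 4 fell in CX3 against DAT. Col1a2, a collagen chain, fell in CX3 by a log2 fold change of -1.05 (adjusted p = 1.14e-09) and rose in DAT by 1.19 (4.48e-11). Col1a1, its partner chain, and Slc6a13, a transporter of the leptomeninges, fell in CX3 by -0.30 and -0.20 (adjusted p = 0.00162 and 0.0211).

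Because globin RNA has been described in dopaminergic neurons and oligodendrocytes, their markers were read as well. Of 10 dopaminergic markers 7 rose and none fell in CX3 against CTR, with summed levels of 878 to 889 CPM in CTR, 1073 to 1094 in CX3 and 698 to 714 in DAT. Slc6a3 (dopamine transporter) rose by a log2 fold change of 0.59 and Ddc (the enzyme that forms dopamine) by 0.59 (edgeR adjusted p = 1.35e-07 and 3.19e-07), with Aldh1a1 at 0.03 (adjusted p = 0.602). In DAT against CTR 3 rose and 4 fell, and in CX3 against DAT 8 rose and none fell. Nr4a2 and Foxa2, transcription factors of these neurons, were at 0.07 and -0.05 (edgeR adjusted p = 0.448 and 0.852), the others that did not pass in CX3 against CTR. Of 6 oligodendrocyte markers 2 rose and 2 fell in CX3 against CTR, 2 rose and 3 fell in DAT, and 3 rose and 2 fell in CX3 against DAT. Their summed levels were 20179 to 20259 CPM in CTR, 21399 to 21789 in CX3 and 14593 to 15524 in DAT. Mobp and Mbp, myelin proteins, differed from CTR by log2 fold changes of 0.05 and 0.14 in CX3 (adjusted p = 0.212 and 0.00329), and Mag, a myelin adhesion protein, by -0.32 (2.54e-05).

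**Figure D5:**
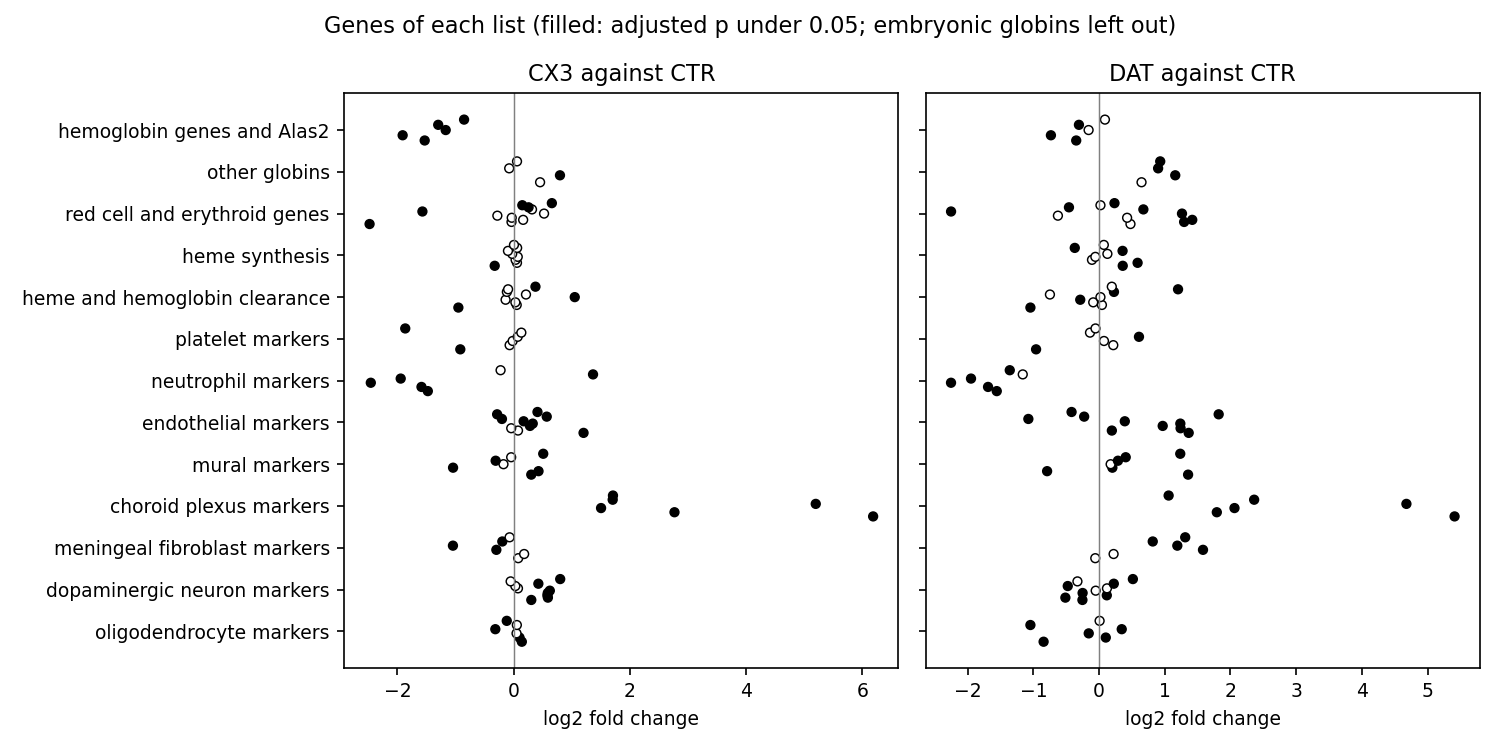
Log2 fold changes (x axis) of the tested genes of each list in CX3 against CTR (left) and DAT against CTR (right), filled where the edgeR adjusted p was under 0.05, with the 3 embryonic globins left out. The row of hemoglobin genes and Alas2 lies at -0.85 or lower on the left and between -0.73 and 0.09 on the right, while all 6 choroid plexus markers lie above 1 in both panels.

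Among 16257 genes with a mean of at least 1 CPM, the 5 whose log2 CPM followed the mean of the 4 globins most closely over the 9 libraries were Pdia3 (Pearson r = 0.993), Ahsa1 (0.988), Rdx (0.986), Cldn11 (0.986) and Herpud1 (0.984). Pdia3, a disulfide isomerase of the endoplasmic reticulum, was at 367, 372 and 364 CPM in CTR, 239 to 248.6 in CX3, and 301, 343 and 318 in DAT. Its range was narrower than that of the globins, although the order of the groups was the same. Herpud1, a gene of the endoplasmic reticulum stress response, lay at 86.3 to 88.1 CPM in CTR, 52.4 to 54.0 in CX3 and 77.6 to 87.9 in DAT. In all, 60 genes reached an r of 0.95, and the points share groups and library scaling, so r is given as a description. Alas2 had an r of 0.843 with the same mean. With group means removed, the 5 genes that followed the globins most closely were Sp3os (r = 0.995), Degs1 (0.995), Rsl1d1 (0.985), Ensa (0.984) and Tmem38b (0.983), and 123 genes reached 0.95. On that scale each globin had an r of 0.933 to 0.958 with the mean of the 4, of which it is part, and Alas2 one of -0.181. The summed globins spread most in DAT (SD 43.3 CPM, beside 12.4 in CTR and 7.77 in CX3). DAT B was the highest DAT library for the globins and for each of the genes from Sp3os to Tmem38b. How far these correlations rest on DAT B was not tested.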

How the data were processed

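RNA was prepared from nigral tissue by the study's authors (RIN of at least 9, 1 µg per library) with a stranded TruSeq mRNA kit and sequenced as 76-base reads. Per the submitters' processing notes reads were trimmed with Trimmomatic, aligned with STAR to mm10 and counted. The deposited files hold raw gene counts without normalization, in the layout of STAR gene counts, and column 2 (unstranded) was used. Reverse-strand counts were 49.8 to 49.9% of both strands. Gene IDs matched GENCODE M21 (55450 of 55450). The 3 groups were fitted together in edgeR 4.0.16 (R 4.3.3) with TMM scaling, filterByExpr and the quasi-likelihood test, with no covariate and Benjamini-Hochberg adjustment over 20892 genes. Genes were called at an adjusted p under 0.05. CPM per kb used the union of exons. The members and gene lists were chosen with earlier results of these data known. From each list, the 3 genes with the smallest adjusted p among those called were named, and the 5 genes most like the globins by correlation. Alternatives were DESeq2 1.42.0, other scalings, filters and strands, a fold threshold, a replicate block and leaving out libraries. 1 gene of the lists had no identifier in the annotation and was not used here, and a few genes of the lists are not reported here. Wilson intervals and floors cover counting error only, whereas the intervals of log2 fold changes come from the edgeR fit and include the spread between libraries.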

Additional observations from a re-analysis of the deposited data

How the results depend on the processing

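Every hemoglobin gene and Alas2 kept its sign and its call in CX3 against CTR and in CX3 against DAT under each alternative tried, except that 4 of 5 passed with a fold threshold of 1.5 in CX3 against CTR. The number of called genes among the 5 was 5 in both comparisons with any single library left out. In DAT against CTR it was 2 to 4 with a single library left out, 4 with library totals, with genes of at least 1 count or with forward strand counts, and 0 with the fold threshold of 1.5. Over all genes, 11259 to 13389 were called in DAT against CTR with a single library left out. Library totals gave 12935 of 20892, genes of at least 1 count 13677 of 44499, and forward strand counts 11402 of 20378. The fold threshold lowered the genes called to 529, 3773 and 3780 in CX3 against CTR, DAT against CTR and CX3 against DAT, from 6367, 12520 and 12311. Leaving out CTR B, CTR C, DAT B and DAT C, chosen after seeing the data, gave 3934 in CX3 against CTR. Scaling by library totals shifted all log2 fold changes by 0.05, -0.15 and 0.19 in the 3 comparisons and turned the split of higher and lower calls to 3958 and 2766, 4890 and 8045, and 8916 and 4444, from 2923 and 3444, 6686 and 5834, and 5767 and 6544. For the other globins in DAT against CTR, 5 higher and 0 lower became 3 and 3 (6 called) without DAT B and DAT C, and 2 and 3 (5 called) with CTR B and CTR C also left out, since the embryonic globins were near 0 in DAT A. Library letters did not pair the samples (correlations of deviations from -0.160 to 0.040, 3 of 9 libraries best with their own letter), and with the replicate block 5805, 12144 and 11955 genes and 5, 3 and 5 of the 5 genes were called. Of 81 alternative values of globin sums and ratios, 11 moved by more than 1 SD, all with counts of a single strand. Many of the 81 were means with 1 of the 3 libraries of a group left out. Such a mean cannot move by 1 SD of those 3 libraries, so these values could only stay and say nothing on stability. Of the alternative counts of called genes per list, 671 stayed within 1.5 times the reported count 119 moved further, and 2 turned direction, those of the other globins given above. Depth limits the precursor genes, most of which had fewer than 20 counts in a library.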

Other observations

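The embryonic globins of DAT B and DAT C did not stand alone. A rule written after their values were seen, more than 1 CPM in both DAT B and DAT C and under 20% of that level in DAT A, found 14 genes. Besides Hbb-y, Hba-x and Hbb-bh1 these were H19, a fetal imprinted RNA, and 10 genes best known from heart and other striated muscle: Actc1, Myh7, Myl2, Myl3, Mybpc3, Myl7, Csrp3, Ankrd1, Tbx20 and Nppa. Actc1, cardiac actin, was at 28.1 and 26.4 CPM in DAT B and DAT C and at 0.156 to 3.09 in the other libraries. H19 was at 23.7 and 24.7 CPM there and at 0.417 to 3.63 elsewhere, and Myh7, a slow myosin heavy chain, at 18.4 and 17.7 against 1.59 to 3.82. Myl7, an atrial myosin light chain, was at 6.84 and 5.22 CPM against 0.0260 to 1.18, and Nppa, the atrial natriuretic peptide, at 1.31 and 1.01 against 0.104 to 0.192. The same rule with any other library as the low one of its group found 0 or 1 gene. DAT B and DAT C differed by less than 2-fold for each of these genes, although DAT B stood apart from DAT C over all genes. In CTR, Actc1 was at 2.03 to 3.09 CPM, beside 1.92 in DAT A, and Tbx20, a cardiac transcription factor, at 0.267 to 0.328, beside 0.110 in DAT A. The source of these transcripts was not tested.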
